A study of Mus musculus with 8 samples.

Results

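The Zfp genes are mouse genes named for zinc finger proteins, and 275 of them were measured among 17097 genes in bulge cells of back skin. A gene counted as a member when a probe set carried, as its single gene symbol, Zfp followed by digits and nothing else. Zfp36, Zfp42 and Zfp644 were left out by the rule, and Zfp36 was not among the genes tested. The 275 members had 466 of the 45141 probe sets on the array: 159 had 1 probe set and 116 had several, up to 6. Where a gene had several, the probe set was chosen by its measured mean over all 8 arrays, the highest being kept, so the level chose the probe set and the difference between genotypes did not. The family itself was singled out with earlier results of these arrays known, so its counts below are a description and no independent support. No filter on low values was applied, and all 275 members were tested.

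The samples were 4 animals labelled G9a cKO and 4 labelled G9a WT, with 1 array each. G9a, encoded by Ehmt2, is a methyltransferase that places methyl groups on histone H3 lysine 9, and cKO stands for its conditional knockout. All 8 animals, wild type included, had received DMBA, a mutagen (0.25 mg/ml), and TPA, a tumour promoter (0.02 mg/ml), each as 200 µl in acetone on the shaved back once a week for 6 weeks from 8 weeks of age. All were 15 weeks old, and the skin was described as pre-neoplastic. The sources used here do not give the promoter that drives the Cre, the deleted part of the gene, the way bulge cells were isolated or the sex of the animals.

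Most zinc finger proteins with this kind of name bind DNA through tandem C2H2 fingers, in which a zinc ion holds a short fold that reads about a base triplet. Many also carry a KRAB domain, which binds the corepressor Trim28. Trim28 brings the H3K9 methyltransferase Setdb1, heterochromatin protein 1 and histone deacetylases, and in this way KRAB zinc finger proteins silence retroelements and hold imprints. Their genes lie in clusters that arose by repeated duplication, so that neighbours are often close relatives. Others among the Zfp genes have no such domain and work in differentiation, RNA processing, translation or the mitotic spindle.

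Of the 14 Zfp genes that were higher in cKO, 11 had an entry among the RefSeq promoter windows (build GRCm38.p6, 300 bases: 250 before and 50 after the annotated start). Zfp286, Zfp462 and Zfp182 had none. Windows of 6 genes are shown 5′ to 3′ on the gene's strand: the 3 that rose by 1.5-fold or more (Zfp811, Zfp239 and Zfp229), Zfp941 with the most matches, and the neighbours Zfp937 and Zfp120, the most similar pair. Capitals mark CCAAT or, for the opposite strand, ATTGG, the letters of the CCAAT box that the factor NF-Y binds. The windows lie at chr17:32809882-32810181 (minus strand, Zfp811), chr6:117861774-117862073 (plus, Zfp239), chr17:21733474-21733773 (plus, Zfp229), chr7:140822129-140822428 (minus, Zfp941), chr2:150217849-150218148 (plus, Zfp937) and chr2:150136629-150136928 (minus, Zfp120).
Zfp811: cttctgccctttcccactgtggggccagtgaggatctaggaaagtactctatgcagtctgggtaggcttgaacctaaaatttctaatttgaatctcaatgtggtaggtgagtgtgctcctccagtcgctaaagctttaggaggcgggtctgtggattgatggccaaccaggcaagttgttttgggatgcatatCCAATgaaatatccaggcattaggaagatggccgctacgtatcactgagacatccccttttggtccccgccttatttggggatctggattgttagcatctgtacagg
Zfp239: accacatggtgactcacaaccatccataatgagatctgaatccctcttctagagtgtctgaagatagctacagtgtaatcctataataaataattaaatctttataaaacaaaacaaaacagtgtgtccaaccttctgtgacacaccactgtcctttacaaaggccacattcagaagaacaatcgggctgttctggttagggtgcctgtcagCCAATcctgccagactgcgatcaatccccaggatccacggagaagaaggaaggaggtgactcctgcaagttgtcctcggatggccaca
Zfp229: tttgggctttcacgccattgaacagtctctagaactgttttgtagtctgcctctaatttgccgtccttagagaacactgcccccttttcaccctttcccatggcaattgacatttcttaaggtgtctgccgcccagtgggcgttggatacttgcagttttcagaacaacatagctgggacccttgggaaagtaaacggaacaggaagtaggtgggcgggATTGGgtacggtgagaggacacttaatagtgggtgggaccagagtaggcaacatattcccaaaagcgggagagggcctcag
Zfp941: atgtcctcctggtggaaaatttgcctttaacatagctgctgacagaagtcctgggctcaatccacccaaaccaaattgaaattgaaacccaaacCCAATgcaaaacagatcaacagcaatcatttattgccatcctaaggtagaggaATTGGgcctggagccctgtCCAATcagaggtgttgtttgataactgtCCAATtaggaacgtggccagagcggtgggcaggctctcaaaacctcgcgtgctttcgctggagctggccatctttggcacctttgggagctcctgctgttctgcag
Zfp937: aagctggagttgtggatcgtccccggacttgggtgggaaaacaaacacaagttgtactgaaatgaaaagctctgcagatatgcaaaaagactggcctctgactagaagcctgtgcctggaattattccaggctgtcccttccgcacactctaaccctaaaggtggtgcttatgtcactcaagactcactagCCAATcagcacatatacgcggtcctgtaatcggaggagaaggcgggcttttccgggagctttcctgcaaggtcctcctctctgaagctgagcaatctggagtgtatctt
Zfp120: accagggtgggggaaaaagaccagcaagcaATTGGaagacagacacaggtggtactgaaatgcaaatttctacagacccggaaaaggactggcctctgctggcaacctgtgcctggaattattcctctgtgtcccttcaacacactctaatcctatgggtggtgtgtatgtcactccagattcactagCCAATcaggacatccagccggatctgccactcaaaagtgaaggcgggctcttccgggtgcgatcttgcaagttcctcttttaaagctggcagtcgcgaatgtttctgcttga

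The libraries were checked before the genes were read. The median log2 level of an array was 5.87 to 5.95. One of the Ehmt2 probe sets was lower in every cKO array (5.54 to 6.44) than in every WT array (8.89 to 9.29), while the other read 8.41 in both groups. On the first principal component, with 37.3% of the variance, WT replicate 4 lay at 2.92, between the other WT arrays (10.6 to 12.7) and the cKO arrays (-12.2 to -5.95). A list of 21 measured immediate early genes, transcripts induced within minutes of a stimulus, also set WT replicate 4 apart from the other WT arrays. Here it lay within the range of the cKO arrays. The mean deviation of the list was -0.15 in WT replicate 4, against 0.20 to 0.33 in the other WT arrays and -0.23 to -0.07 in cKO. Bulge and keratinocyte markers such as Krt15, Krt5 and Cd34 were bright (10 of 10 measured, mean log2 levels 9.09 to 12.6), and 0 of 10 passed the threshold described below. Nfatc1 came near it, with a log2 change (cKO minus WT) of -0.35 (adjusted p = 0.0566), and Krt15 changed by 0.098 (adjusted p = 0.202). For both genes the cKO and WT values did not overlap. Mean levels of the 10 immune markers ran from 3.61 (Ptprc, near the floor of the arrays) to 6.81, those of 6 endothelial markers from 4.45 to 5.93 and those of 7 melanocyte markers from 4.26 to 9.51, and 0 of these passed. Lists of these sizes hold about 0 calls at 1.92% of all genes higher and 0.836% lower. The counts of 0 therefore do not show equal cell composition. Of 9 fibroblast markers, with means of 3.87 to 7.18, Thy1 was higher (adjusted p = 0.0251) and Col1a1 lower in cKO (adjusted p = 0.0010). Mean deviations of arrays over that list were -0.083 to 0.0091 in cKO and -0.057 to 0.10 in WT, and its part in the Zfp results was not tested.

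Zfp genes were shifted towards higher values in cKO, by a small amount. The median log2 change (cKO minus WT) over the 275 members was 0.038, with quartiles of -0.015 and 0.12. Over all 17097 genes the median was 0.0027 and the quartiles were -0.048 and 0.058. The change was above 0 for 186 members (67.6%) and for 51.5% of all genes. Averaged over the members, the deviation of an array from the gene means was 0.041, 0.035, 0.011 and 0.042 in cKO replicates 1 to 4, and -0.030, -0.058, -0.049 and 0.0091 in WT replicates 1 to 4. All cKO arrays thus lay above all WT arrays, and WT replicate 4 lay closest to them. The range of the members' changes ran from -0.40 for Zfp655 to 0.98 for Zfp811. In bulk RNA, more cells of a type that expresses a gene and more RNA per cell cannot be told apart.

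**Figure D1:**
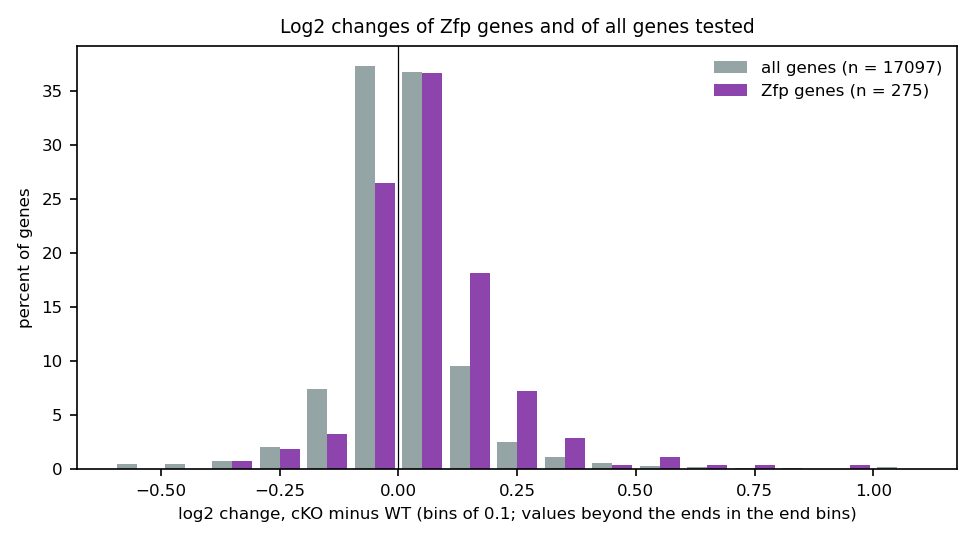
Percent of genes (vertical axis) by log2 change, cKO minus WT (horizontal axis, bins of 0.1), for the 275 Zfp genes (purple) and all 17097 genes (grey). The bin from 0.1 to 0.2 held 18.2% of the Zfp genes and 9.55% of all genes, and the bin from -0.1 to 0 held 26.5% and 37.4%.

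At an adjusted p under 0.05, 14 members (5.09%) were higher in cKO, where 1.92% of all genes tested were (329 of 17097), and 1 member (0.364%) was lower, where 0.836% of all genes were. The adjusted p throughout comes from limma's moderated test fitted over all genes with Benjamini-Hochberg adjustment. At an unadjusted p under 0.05, 54 members (19.6%) were higher and 8 (2.91%) lower, against 8.16% and 5.57% of all genes. The lowest cKO value lay above the highest WT value for 31 members (11.3%; 5.15% of all genes), and the reverse held for 6 (2.18%; 3.09% of all genes). Members were therefore above the background on the higher side by each of these counts, and below it on the lower side. The rises were modest: folds ran from 1.16 to 1.97 with a median of 1.32, and 3 of 14 reached 1.5-fold. Calls were named only where the groups did not overlap. The exact permutation p over arrays is then always 0.0286, the smallest that 4 against 4 arrays allow, so it adds no support.

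Zfp811 showed the largest change. It read 5.87, 6.11, 5.66 and 5.91 in cKO replicates 1 to 4 and 4.76, 4.75, 4.85 and 5.26 in WT replicates 1 to 4. The groups did not overlap, and WT replicate 4 was the WT array nearest to cKO. The means were 5.89 ± 0.18 and 4.91 ± 0.24 (log2, SD, n = 4 each), a log2 change of 0.98 (SE 0.12; 1.97-fold; adjusted p = 0.0022).

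Zfp239, known as Mok2 and described as binding both DNA and RNA, read 7.81, 7.94, 7.82 and 7.70 in cKO and 6.94, 6.92, 7.02 and 7.32 in WT. Again every cKO array lay above every WT array, with WT replicate 4 nearest. The change was 0.77 (SE 0.093; 1.70-fold; adjusted p = 0.0021). Zfp229 read 5.63, 5.65, 5.52 and 5.58 in cKO and 4.94, 4.94, 4.74 and 5.05 in WT. Its groups stood 0.47 apart at their nearest values, the widest gap among the members that rose. The change was 0.68 (SE 0.067; 1.60-fold; adjusted p = 0.00076), the lowest p of any member.

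Zfp462, a protein reported to bring G9a and its partner GLP to chromatin in embryonic stem cells, read 8.34, 8.38, 8.22 and 8.08 in cKO and 7.81, 7.54, 7.53 and 7.87 in WT. The groups did not overlap, with WT replicates 1 and 4 the higher of the WT arrays. The change was 0.57 (SE 0.097; 1.48-fold; adjusted p = 0.011). A pair of further, dimmer Zfp462 probe sets moved the same way without passing the threshold over all probe sets, with changes of 0.25 and 0.30 (adjusted p = 0.192 and 0.187).

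Zfp983 read 5.92, 5.95, 5.91 and 6.08 in cKO and 5.36, 5.28, 5.48 and 5.61 in WT. Its values did not overlap, and the change of 0.54 (SE 0.076; 1.45-fold; adjusted p = 0.0043) was joined by a second probe set that also passed (0.32, adjusted p = 0.0208 over all probe sets). Zfp941 read 8.26, 8.28, 8.51 and 8.51 in cKO and 7.77, 8.00, 7.77 and 7.95 in WT. Its groups were apart by 0.26, cKO replicates 3 and 4 being the highest arrays. The change was 0.52 (SE 0.083; 1.43-fold; adjusted p = 0.0084), while a second, dimmer probe set changed by 0.18 (adjusted p = 0.517).

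Zfp563 read 6.48, 6.55, 6.46 and 6.34 in cKO and 6.15, 6.00, 5.88 and 6.11 in WT. Every cKO array was above every WT array, and the change was 0.42 (SE 0.073; 1.34-fold; adjusted p = 0.0119). Zfp882 read 4.83, 4.91, 4.73 and 4.76 in cKO and 4.30, 4.44, 4.38 and 4.58 in WT. This probe set is dim, its groups did not overlap, and the change was 0.39 (SE 0.064; 1.31-fold; adjusted p = 0.0099). Zfp937 was also dim and tightly grouped, at 4.61 to 4.67 in cKO and 4.35 to 4.46 in WT (change 0.23, SE 0.040; 1.17-fold; adjusted p = 0.0137).

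The other 5 risen members lay nearer the threshold. Zfp182, an X-linked gene, was at 6.78 to 7.10 in cKO and 6.51 to 6.69 in WT (change 0.37, adjusted p = 0.0308), and its second probe set passed as well (0.39, adjusted p = 0.0335 over all probe sets). Zfp994 was at 5.56 to 5.82 against 5.30 to 5.47 (0.33, adjusted p = 0.0418). Zfp677 was at 4.63 to 4.92 against 4.46 to 4.55 (0.30, adjusted p = 0.0280). Its groups had the smallest gap of the 14, 0.080. Zfp286 was at 4.26 to 4.35 against 3.96 to 4.17 (0.25, adjusted p = 0.0303). Its second probe set did not pass (0.15, adjusted p = 0.225 over all probe sets). Zfp120 was at 4.98 to 5.05 against 4.75 to 4.88 (0.21, adjusted p = 0.0401).

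Zfp711 was the member that fell. It is an X-linked gene whose human counterpart is mutated in intellectual disability and whose protein works with the histone demethylase PHF8. It read 4.45, 4.18, 4.31 and 4.37 in cKO and 4.63, 4.58, 4.67 and 4.69 in WT. The groups did not overlap, and cKO replicate 2 was the lowest array. The change was -0.32 (SE 0.057; 1.25-fold lower; adjusted p = 0.0150). A second Zfp711 probe set, near the floor of the arrays, read 4.0 in cKO and 3.99 in WT (adjusted p = 0.968 over all probe sets).

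**Figure D2:**
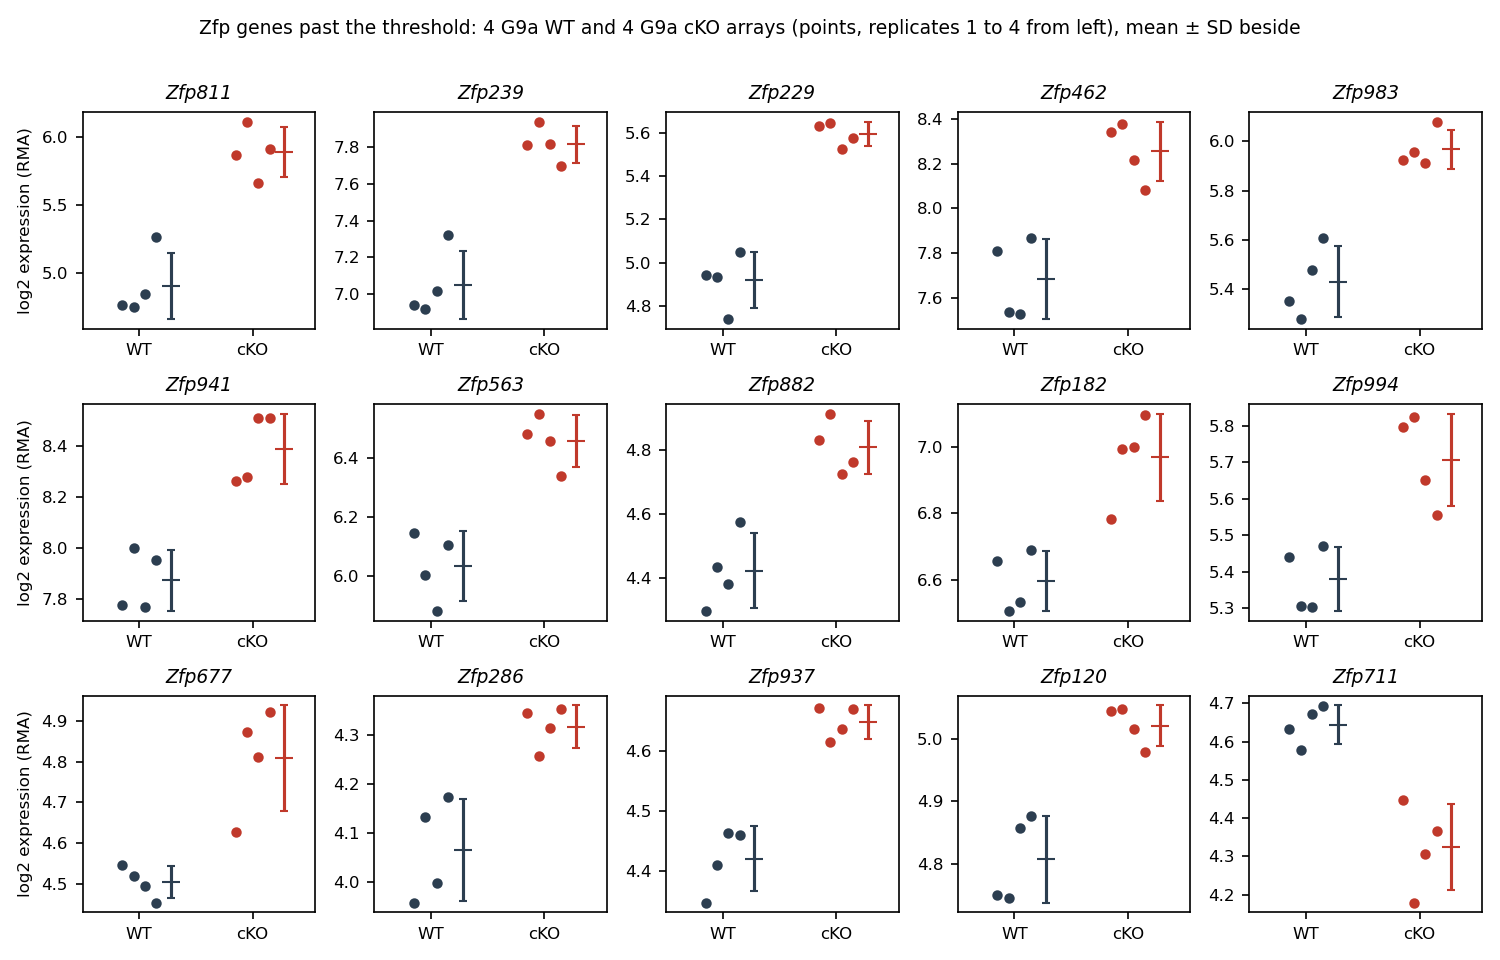
Log2 expression (vertical axis of each panel, own scale) of the 15 Zfp genes past the threshold in the 4 WT and 4 cKO arrays; points are arrays with replicates 1 to 4 from left, and bars give mean ± SD. In every panel the groups are apart, and WT replicate 4 is the highest WT array for 10 of the 14 genes that rose.

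On either side of the threshold the values ran on without a break. Just inside it lay Zfp994 (adjusted p = 0.0418) and Zfp120, and just outside it Zfp655 (7.71 ± 0.08 in cKO and 8.10 ± 0.19 in WT, change -0.40, adjusted p = 0.0503) and Zfp583 (3.96 ± 0.08 and 3.74 ± 0.08, change 0.21, adjusted p = 0.0503). In all, 7 higher and 2 lower members had an adjusted p from 0.05 to 0.1. The 260 members that did not pass are not shown to be equal between genotypes. For 256 of the 275 members the 95% confidence interval lay within 0.5 log2 units of 0, so larger changes than that lie outside the interval for them. The median SE was 0.064, and the median SD over replicates was 0.079 in cKO and 0.090 in WT. Replicates differed most for Zfp367 in cKO (SD 0.40) and Zfp319 in WT (SD 0.42).

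The rises were not limited to bright probe sets. Members' means ran from 3.39 to 10.6 with a median of 6.37, close to 6.52 for all genes. The 14 risen members had means of 4.19 to 8.13, and 5 of them lay below 5.23, the 40th percentile of all probe sets, as did 78 of the 275 members. Of the tested probe sets of members, 10 had the suffix _x_at and 11 _s_at, which mark probes that can match several transcripts; 0 of the 14 that rose were among them. Called members had 7 further probe sets, of which 6 changed in the direction of the tested one and 2 passed over all probe sets. Among the 191 further probe sets of all members, 2 were called higher (those of Zfp182 and Zfp983) and 1 lower. The lower one was a dim probe set of Zfp316 (4.37 in cKO, 4.63 in WT). The tested probe set of Zfp316 did not pass (adjusted p = 0.819). By tested probe sets, 1.92% of all genes were higher and 0.836% lower. The share called among all probe sets is not given, so nothing is read from the counts of further ones.

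The genes of 3 role lists are given whatever they did; at 1.92% higher and 0.836% lower over all genes, lists of this size hold about 0 calls, so nothing is read from their counts. Of 9 Zfp genes that hold down retroelements or imprints 7 were measured, with a median change of 0.0048, and 0 passed in either direction (at an unadjusted p under 0.05, 0 higher and 1 lower). That gene was Zfp809, which silences murine leukaemia retroviruses: it read 7.96, 7.84, 7.83 and 7.84 in cKO and 8.22, 7.93, 8.16 and 8.08 in WT. The groups overlapped through cKO replicate 1 and WT replicate 2, and the change was -0.23 (SE 0.070; adjusted p = 0.145). Zfp445, a keeper of imprints, was at 10.04 ± 0.08 and 9.93 ± 0.11 (adjusted p = 0.504). Zfp568, which represses a placental Igf2 transcript, was at 6.22 ± 0.15 and 6.22 ± 0.23 (adjusted p = 0.992). Zfp932 and Zfp961, which act on endogenous retroviruses, changed by -0.0040 and 0.16, and Zfp708 and Zfp689 by 0.0048 and 0.0092, with adjusted p from 0.492 to 0.992.

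Of 11 Zfp regulators of growth and differentiation 10 were measured, and 0 passed (1 higher and 0 lower at an unadjusted p under 0.05; median change 0.032). Zfp750, a driver of terminal epidermal differentiation, read 6.20 ± 0.09 in cKO and 6.25 ± 0.07 in WT (adjusted p = 0.854). Zfp217, an oncogene that works with the demethylase Lsd1, read 9.27 ± 0.08 and 9.19 ± 0.09 (adjusted p = 0.687). Zfp703, a breast cancer oncogene, was at 8.76 ± 0.11 and 8.91 ± 0.08, a change of -0.15 (adjusted p = 0.376). Zfp420, an inhibitor of p53 also known as Apak, had the unadjusted p under 0.05 with a change of 0.16 (adjusted p = 0.331). Zfp281 and Zfp148, which bind GC-rich promoters, changed by 0.044 and 0.036. Zfp277, a repressor of the Cdkn2a locus, changed by 0.060, Zfp423 and Zfp521, factors of adipocyte and neural precursors, by -0.021 and -0.035, and Zfp365 by 0.028.

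Of 10 Zfp proteins that work on RNA, ribosomes or the spindle 9 were measured, and 0 passed (1 higher and 0 lower at an unadjusted p under 0.05) and the median change was 0.0015. Zfp638, which silences unintegrated retroviral DNA together with the HUSH complex, was at 9.16 ± 0.08 and 8.97 ± 0.15 (change 0.19, adjusted p = 0.295). Zfp207, which holds the checkpoint protein Bub3 at kinetochores, was at 9.62 ± 0.18 and 9.69 ± 0.26. Zfp598, the ubiquitin ligase of collided ribosomes, was at 8.20 ± 0.11 and 8.27 ± 0.08. Zfp622 and Zfp593, factors of ribosome maturation, changed by -0.057 and -0.13, and Zfp346, which binds double-stranded RNA, by 0.016. Zfp106, Zfp326 and Zfp830, which bind RNA or act in splicing, changed by 0.0015, 0.0090 and 0.013.

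Cofactors through which KRAB zinc finger proteins act were read in the same way. Of 29 listed cofactors of H3K9 silencing 25 were measured, and 0 passed in either direction, with a median change of 0.0051. At 1.92% and 0.836% of all genes a list of 25 holds under 1 call, and at an unadjusted p under 0.05, where 8.16% and 5.57% of all genes passed, 1 was higher and 0 lower. Trim28 read 10.77, 10.76, 10.74 and 10.75 in cKO and 10.78, 10.81, 10.79 and 10.84 in WT. The groups were just apart, by 0.0058, on a change of -0.050 (SE 0.033; adjusted p = 0.583). Setdb1 was at 9.02 ± 0.10 and 9.08 ± 0.07 (adjusted p = 0.741). The lowest p belonged to the deacetylase Hdac2, at 10.07 ± 0.07 and 9.94 ± 0.07 (change 0.13, adjusted p = 0.278), followed by the Trim28 relative Trim33 (change 0.10, adjusted p = 0.482) and the modifier Sumo2 (0.066, adjusted p = 0.515). Ehmt1, which encodes GLP, and Wiz, which links G9a with GLP, changed by 0.0043 and 0.0051.

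Of the 14 risen members 6 lay in runs of neighbouring Zfp genes on chromosome 17, with uncalled members between them. Members were set in the order of protein-coding genes of GRCm38.p6, in which 274 of 275 are listed, and a run was at least 4 members with at most 3 other genes between neighbours. There were 14 runs with 100 members. The 2 runs on chromosome 17 held 22 members, of which 6 rose, with a median change of 0.15. The 253 members outside them held the other 8 risen genes and had a median of 0.032. In the first chromosome 17 run, from Zfp677 to Zfp758, 4 of 16 rose (Zfp677, Zfp983, Zfp229 and Zfp994) and 12 of 16 changes were above 0. In the second, from Zfp871 to Zfp563, 2 of 6 rose (Zfp811 and Zfp563) and 6 of 6 changes were above 0. For comparison, 5.09% of all 275 members rose and 67.6% of their changes were above 0. Of all genes tested, 1.92% were higher and 51.5% had a change above 0. The runs were not tested against these shares.

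Neighbours within a run did not all move. Uncalled genes between the risen ones of the first run included Zfp942 (change 0.033), Zfp943 (-0.017) and Zfp947 (-0.21, SE 0.15). The other uncalled genes between them were all above 0: Zfp54 (0.12), Zfp51 (0.14), Zfp53 (0.10), Zfp52 (0.20), Zfp948 (0.16), Zfp760 (0.30) and Zfp820 (0.26). At the far end of that run Zfp944 and Zfp758 changed by -0.020 and -0.018. In the second run Zfp871 and Zfp870, on either side of Zfp811, changed by 0.083 and 0.079 (adjusted p = 0.620 and 0.396). Members of a run can be close relatives, so a probe set can also read transcripts of a neighbour.

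**Figure D3:**
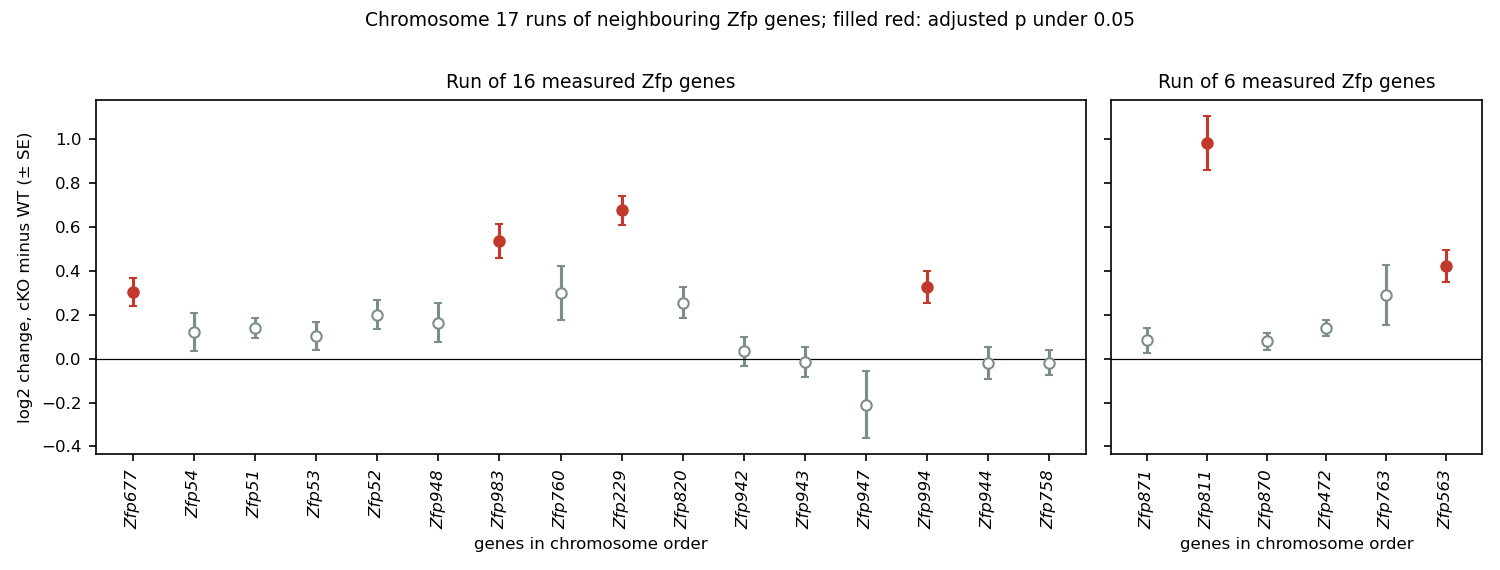
Log2 change, cKO minus WT (vertical axis), with its SE as bars, for the 22 Zfp genes of the 2 chromosome 17 runs in chromosome order (horizontal axis, not to distance); filled red points passed at an adjusted p under 0.05. Called genes lie among uncalled ones, and Zfp811 at 0.98 stands beside Zfp871 and Zfp870 at 0.083 and 0.079.

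Over chromosome 17 as a whole, 20 of 723 measured protein-coding genes (2.77%) were higher, the 6 members included, where 1.92% of all genes were. The nearest measured genes that are not members were also read on both sides of each called gene. Of these 22 genes 0 passed, where 1.92% of all genes were higher and 0.836% lower, so nothing is read from that count. Gm7072, beside Zfp994, changed by 0.24 (adjusted p = 0.318) and Ppp2r1a, before Zfp677, by 0.0041. The Cyp4f genes around Zfp811, Cyp4f15 and Cyp4f14, changed by -0.0097 and -0.036. Another run with a call was that of Zfp709, Zfp882, Zfp617 and Zfp961 on chromosome 8, whose 4 changes were all above 0 (0.25, 0.39, 0.18 and 0.16), with Zfp882 past the threshold.

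Other runs of the same kind held no call. The 8 runs on chromosome 7 had 52 members, 0 of which rose, with a median change of 0.039. The run of 11 on chromosome 13, from Zfp712 to Zfp748, had 10 changes above 0, a median of 0.087 and 0 calls. The run of 7 on chromosome 6 had 2 changes above 0. At 1.92% of all genes higher and 0.836% lower, runs of these sizes hold few calls, so nothing is read from their counts of 0. Outside the runs Zfp937 and Zfp120 lie near each other on chromosome 2, and Zfp239, Zfp462, Zfp941, Zfp182, Zfp286 and Zfp711 have no run around them.

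The promoter windows of the risen members shared the letters CCAAT. The first listed window of each gene was searched on both strands for 12 motifs, and CCAAT was singled out after its values were seen, with no test. It was present in 11 of 11 windows of risen members, 97 of 216 windows (44.9%) of the other members, 39.0% of 17492 protein-coding windows and 37.9% of all 27025. Of the other members of the chromosome 17 runs 8 of 14 (57.1%) held it. The 11 windows had 18 matches, 11 on the gene's strand and 7 on the opposite one, and 14 lay within 150 bases before the start, in 9 of the 11 genes. In the sequences above, Zfp941 has 4 matches, while the single match of Zfp229, on the opposite strand, lies 29 bases before the start. Zfp239 has a second listed window that holds none.

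**Figure D4:**
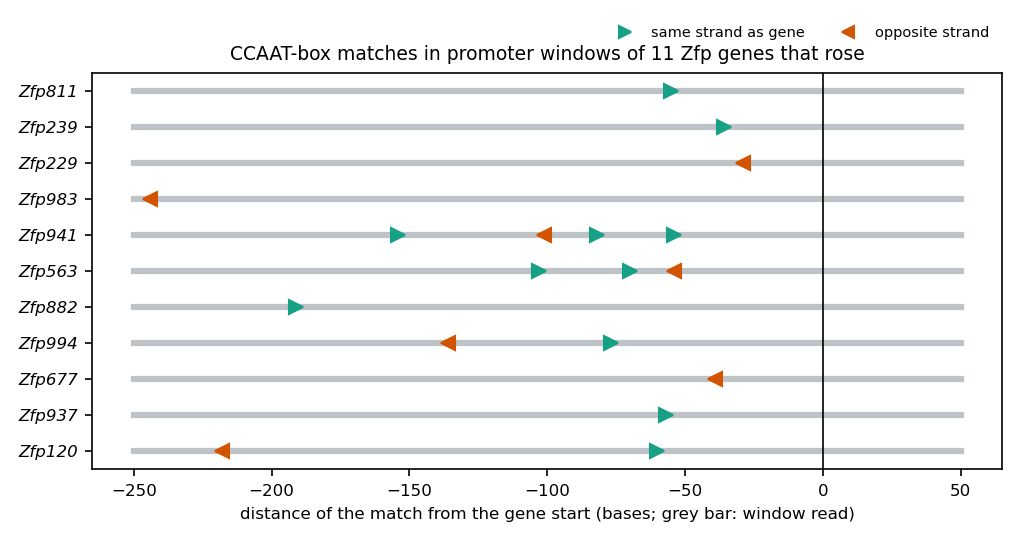
Positions of CCAAT matches (horizontal axis, bases from the annotated start at 0) in the 300-base windows of 11 risen Zfp genes; triangles point right for the gene's strand and left for the opposite strand. Of the 18 marks 14 lie within 150 bases before the start, and the matches of Zfp983 (-244) and Zfp882 (-191) lie farther out.

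The same windows had, by median, fewer CG dinucleotides than those of the other members and of protein-coding genes. They had about as many as all windows. Risen members had a median of 8 (4 to 11) per window, the other members 16 (1 to 59), protein-coding genes 13 and all genes 7. Members of the chromosome 17 runs that did not rise had 10 (5 to 22). The counts were not tested, and the median GC share was 50.3% in risen and 55.7% in other members. The GC box GGGCGG was in 3 of 11 risen windows (27.3%) and in 49.5% of the other members. It was in 46.3% of protein-coding and 35.9% of all windows. The ETS letters CCGGAAG were in 20.7% of members, 11.9% of protein-coding windows, 9.12% of all windows and 1 of 11 risen windows. A second ETS form, ACTTCCG, overlaps the first in 6 bases on the opposite strand. It was in 19.8% of members, 8.60% of protein-coding windows, 6.59% of all and 2 of 11 risen windows.

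The remaining motifs were in 0 or 1 of the 11 risen windows, which is too few windows to set against shares of this size. TATAAA was in 1 of 11 and 14.2% of all windows, the E-box CACGTG in 1 and 7.24%, and the AP-1 site TGANTCA in 1 and 7.93%. The CREB site TGACGTCA was in 0 of 11 risen and 1.88% of all windows, and the NRF1 motif in 0 and 0.977%. The motifs of ZNF143 (0 and 1.04%), YY1 (0 and 0.699%) and BANP (0 and 0.496%) were likewise absent from these 11 windows. Over the 55 pairs of risen windows the identity in global alignment had a median of 46.5%. The Zfp937 and Zfp120 windows reached 70.9%, and Zfp983 and Zfp677, of the same chromosome 17 run, came next with 55.6%. A match or its absence describes these letters in these windows only.

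Zinc finger genes with other kinds of symbol were counted in the same fit. Such genes numbered 106 (Zbtb, Zscan, Zkscan, Klf, Zeb and similar, Zfp with a letter, and the measured exceptions Zfp42 and Zfp644). Of these 2 were higher and 0 lower, where 1.92% and 0.836% of all genes were. At an unadjusted p under 0.05, 9 were higher and 8 lower, where 8.16% and 5.57% of all genes were, so these counts sat near the background. Their median change was 0.0075 and 58 were above 0. Zfp518a read 5.74, 6.08, 5.79 and 5.68 in cKO and 4.66, 4.26, 4.38 and 5.03 in WT. Its groups were 0.64 apart, and the change of 1.24 (SE 0.15; 2.36-fold; adjusted p = 0.0021) was larger than that of any member. Zbtb38, which binds methylated CpG sites, read 9.57 to 9.64 in cKO and 9.02 to 9.29 in WT (change 0.48, 1.39-fold, adjusted p = 0.0029). Of the exceptions, Zfp42, the pluripotency gene Rex1, was near the floor at 3.73 and 3.71, and Zfp644, a partner of Wiz in the G9a and GLP complex, was at 9.0 and 8.95 (adjusted p = 0.826). The difference between the members and this group was not tested.

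The count of calls moved with WT replicate 4 and with the immediate early genes. Without WT replicate 4, 23 members (8.36%) were higher and 2 lower, where 2.94% and 1.72% of all genes were; all 14 risen members were among the 23. The members called in addition were Zfp386, Zfp583, Zfp612, Zfp638, Zfp748, Zfp760, Zfp820, Zfp825 and Zfp950 as higher and Zfp655 as lower. Zfp825 had the largest change of these, 0.45 (adjusted p = 0.0046), and Zfp760 and Zfp820 belong to the first chromosome 17 run. With the mean of the immediate early list as a covariate, 1 member, Zfp229, was higher (0.61, adjusted p = 0.0488), where 0.298% of all genes were. Zfp97 was the 1 that was lower (-0.60, adjusted p = 0.0491), where 0.14% of all genes were. In that fit the changes of the 14 risen members stayed above 0, from 0.15 for Zfp120 to 0.72 for Zfp811. Each SE was larger than in the fit without the covariate, and each change was smaller except that of Zfp677. For Zfp811 the change went from 0.98 (SE 0.12) to 0.72 (SE 0.16). For Zfp563 it went from 0.42 (SE 0.073) to 0.41 (SE 0.11). The list mean was itself lower in the cKO arrays and in WT replicate 4 than in the other WT arrays, and its part in the Zfp changes was not tested.

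**Figure D5:**
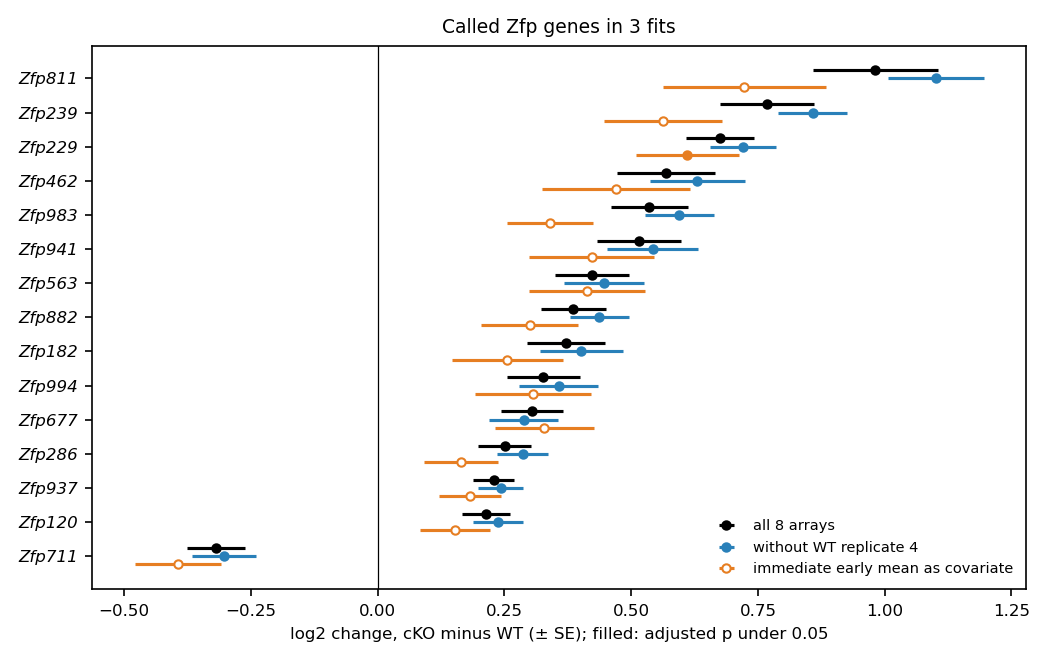
Log2 change, cKO minus WT (horizontal axis), with its SE as bars, for the 15 called Zfp genes with all 8 arrays (black), without WT replicate 4 (blue) and with the immediate early covariate (orange); filled points have an adjusted p under 0.05. Without WT replicate 4 all 15 points are filled, and with the covariate Zfp229 alone is.

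When each array was omitted in turn, 9 of the 15 called members passed in 8 of 8 fits: Zfp811, Zfp239, Zfp229, Zfp462, Zfp983, Zfp941, Zfp563, Zfp882 and Zfp937. Zfp711 passed in 7, not without WT replicate 3 (adjusted p = 0.0559). Zfp182, Zfp994, Zfp677 and Zfp286 passed in 2 of 8 and Zfp120 in 1, the fit without WT replicate 4. All 15 kept their direction in the 8 fits. That was fixed in advance, because groups that do not overlap cannot change order when 1 array is omitted.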

How the data were processed

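Log2 expression per probe set was computed by the authors with RMA, which corrects background, normalizes between arrays and summarises probes, per the submitters' processing notes. The sources used here do not give its version. These deposited log2 values, from 3.09 to 13.1, were used as they were. RNA was extracted with TRizol, and 25 ng were amplified with 17 cycles, per the labels' protocols. Names of probe sets came from the platform annotation (28898 with 1 gene symbol, 551 with several, 15692 with none), and 1 probe set per gene was tested. The 4 cKO and 4 WT arrays were compared with limma 3.58.1 (two-sided, eBayes with trend; R 4.3.3), with Benjamini-Hochberg adjustment over all 17097 genes and a threshold of 0.05; further probe sets were adjusted over all 45141 probe sets. The fit was tested on simulated data. Single values had exact two-sided permutation tests. The titles name an animal for each array, and the p-values measure the spread between animals as far as those titles hold. Errors are SD over 4 animals or the SE of the fit, and the number of arrays limits precision.

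The members, the role, cofactor and marker lists, and the tests were chosen with earlier results of these data known. Named are all called members whose groups do not overlap and every measured gene of the 3 role lists. The measured exceptions and the 3 cofactors with the lowest p are named too. Further probe sets are given for the called members. Those of the other genes in these lists were fitted but are not given, and some changed in the opposite direction to the tested one. Other genes were named after their values were seen. Tried as alternatives were 2 normalizations, dim probe sets left out, other uses of probe sets, eBayes without trend, array weights, a replicate block, an immediate early covariate, each array left out and other thresholds. Protein domains of the members were not analysed here. Figures were drawn with matplotlib 3.10.9.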

Additional observations from a re-analysis of the deposited data

Results flagged for a closer look

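Zfp809, the retrovirus silencer, read 7.96 in G9a cKO replicate 1, apart from the other cKO arrays at 7.83 to 7.84. The gap to the nearest array was 0.881 of the range of the group, beyond the critical value of Dixon's test for 4 samples. It was 1 of 104 groups tested (52 named genes in cKO and in WT), of which chance would give about 1 in 20.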

How the results depend on the processing

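With the replicate block, 7 Zfp genes were higher, 6 of them among the 14, and the adjusted p of Zfp462 became 0.0510 and that of Zfp563 0.0619. Same-numbered arrays did not deviate together (correlations of -0.33, -0.27, -0.53 and 0.028). The titles do not say whether same-numbered animals were matched, and with 4 arrays per group these correlations cannot exclude it. Higher Zfp genes numbered 9 of 197 tested with dim probe sets left out, 1 with the immediate early covariate, 6 at an adjusted p under 0.01 and 9 to 23 with 1 array left out (9 without WT replicate 1, WT replicate 3 or cKO replicate 2, and 23 without WT replicate 4). Lower Zfp genes numbered 2 with array weights, arrays shifted to a common median or the mean of all probe sets, 0 at 0.01, 3 at 0.1 and 0 to 2 with 1 array left out. Other zinc finger genes gave 1 higher with dim probe sets left out, 0 with the covariate and 2 to 6 with 1 array left out. They gave 3 lower with array weights, 1 with the replicate block, 2 at 0.1 and 0 to 7 with 1 array left out. The causes were not tested. In the other alternatives the count of higher Zfp genes was 12 to 21. The share of all genes called higher moved as well. It was 1.92% with all arrays, 2.94% without WT replicate 4 and 0.298% with the covariate. That share is not given for the remaining alternatives, so their counts cannot separate a change in Zfp genes from one in all genes. The median change of Zfp genes was 0.032 to 0.054 with 1 array left out and 0.020 with the covariate. Cofactors gave 0 calls in each alternative. For the 15 called genes, 210 of 279 alternative values stayed past the threshold, 69 did not and 0 turned direction. With 1 array left out the direction could not turn, because the groups of these genes do not overlap. The class of each Zfp protein by its fingers and KRAB domain was planned and not run. Signal over background was not measured for single probe sets, which limits what can be said of the 78 Zfp genes with means below 5.23.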
